A study of Mus musculus with 6 samples.

Results

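Serine proteases of the kallikrein and plasminogen systems and the serpins that inhibit them were followed in the hippocampus of mice given substance P (SP). The 8 genes were named for their roles at synapses, with earlier results of these data known, and all 8 of the 55421 genes listed were found and tested: *Klk8*, *Klk6*, *Prss12*, *Htra1*, *Plat*, *Plau*, *Serpini1* and *Serpine2*. Hippocampal RNA came from 6 wild-type male C57BL/6N mice aged 8 to 10 weeks. In 3 of them SP (10 µM, 100 µL) had been given under the skin daily for 14 days, and the other 3 had received saline in the same volume (vehicle). Each mouse gave 1 stranded mRNA library, numbered 1 to 3 within its group, and the labels call this number a batch. Total counts were 23105888, 24560585 and 27605937 for libraries 1 to 3 labelled vehicle, and 23608411, 24284608 and 22349941 for libraries 1 to 3 labelled SP. Directions rest on these labels, and no gene measured here serves as a check of the injection. The sources used here differ on the sign of the contrast between SP and vehicle, so that every direction given is that of the deposited labels, markers included, and would turn if the group names had been exchanged.

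These enzymes are secreted by neurons and glia and cut matrix and adhesion proteins outside the cell. Plasminogen activators turn plasminogen into plasmin, and serpins stop the activators by forming a covalent complex with them. In the hippocampus the balance of protease and inhibitor is known to affect synapse structure and long-term potentiation.

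Markers of hippocampal cells were looked at beside the label of the tissue, with no other tissue to compare. All 5 markers of dentate granule cells, all 5 of CA1 and all 5 of CA3 pyramidal cells passed the filter on low counts, and their summed expression in vehicle was 398 ± 11.6, 621 ± 31.4 and 350 ± 12.0 CPM (counts relative to the normalized library size, on edgeR's CPM scale, mean ± SD, n = 3). Markers of adjoining tissue were also present. The 5 choroid plexus markers summed to 3800, 3742 and 4656 CPM in vehicle libraries 1 to 3 and to 170, 2760 and 3900 CPM in SP libraries 1 to 3. SP library 1 was thus far below the others for these markers. The 8 markers of neocortex, layer 6b and subiculum summed to 232, 221 and 221 CPM in vehicle and to 178, 150 and 202 CPM in SP, with no overlap between the groups.

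Differential expression was tested across 17069 genes with edgeR's quasi-likelihood test, with the batch number as a block. A gene was called a differentially expressed gene (DEG) at FDR < 0.1 and |log2FC| > 0.3. None of the 8 genes was a DEG (0 of 8), where 5 of all tested genes were (0.0293%). With the block, limma-voom and DESeq2 also called 0 of the 8, where they called 2 and 36 genes in all, and DESeq2 with no block called 1 of the 8 and 133 genes in all. An unadjusted p under 0.05 was found for 5 of the 8, against 10.1% of all tested genes in either direction. These were *Klk8*, *Plat* and *Htra1*, which were higher in SP, and *Serpini1* and *Plau*, which were lower. Of these, *Klk8* alone had such a p under each of 18 alternatives. The CPM of the groups did not overlap in 4 of the 8, against 18.2% of all tested genes. The median log2FC of the 8 genes was -0.07, beside 0.0015 for all tested genes, since genes in both directions were among them. Its sign turned without batch 2 (0.08) and, with no block, without vehicle library 2 (0.05) or SP library 2 (0.06). Since hippocampal tissue was sequenced in bulk, fewer cells of a type and less RNA per cell cannot be told apart for any of these genes.

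**Figure D1:**
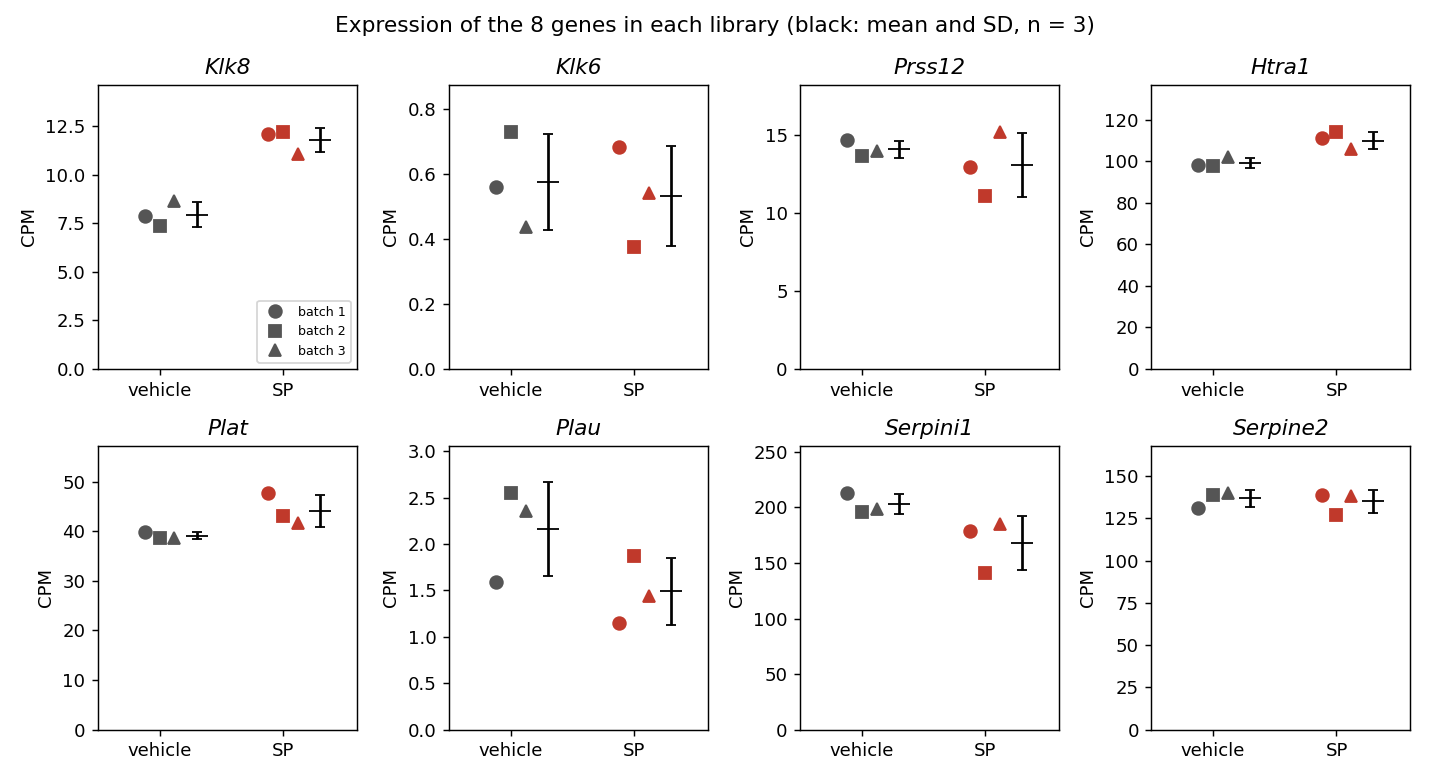
Expression of each gene in CPM (vertical axes, from 0) in the 3 vehicle libraries (grey) and the 3 SP libraries (red), with the symbol giving the batch and the black bar the mean and SD of 3 mice. *Klk8*, *Plat* and *Htra1* lie higher in all SP libraries than in all vehicle libraries, *Serpini1* lies lower, and the other 4 genes overlap.

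*Klk8* encodes neuropsin, a kallikrein that cuts cell adhesion molecules at synapses in an activity-dependent way. It lies at chr7:43797577-43803826 on the plus strand of GRCm38 (ENSMUSG00000064023). Its expression was 7.86, 7.36 and 8.64 CPM in vehicle libraries 1 to 3 and 12.1, 12.2 and 11.1 CPM in SP libraries 1 to 3. All 3 SP values were above all 3 vehicle values, and the lowest SP value was in batch 3, where the vehicle value was highest. The means were 7.95 ± 0.645 CPM in vehicle and 11.8 ± 0.600 CPM in SP (SD, n = 3), a 1.49-fold difference. The fitted log2FC was 0.57 (SE 0.107) with an unadjusted p = 0.000914 from edgeR and FDR = 0.308. Within batches 1, 2 and 3 the log2 difference was 0.62, 0.72 and 0.36, so that it was positive in 3 of 3 batches. Of all tested genes, 4.72% had an absolute log2FC at least as large, and 44 had a p at least as small. *Klk8* became a DEG under 3 of 18 alternatives, namely with no filter on low counts (FDR = 0.0155), by DESeq2 with no block (FDR = 0.0189) and by edgeR with no block and without SP library 3 (FDR = 0.0564), and over all alternatives its FDR ranged from 0.0155 to 0.712. These 3 settings called 384, 133 and 357 DEGs among all genes, against 5 by edgeR with the block and 2 by edgeR with no block.

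**Figure D2:**
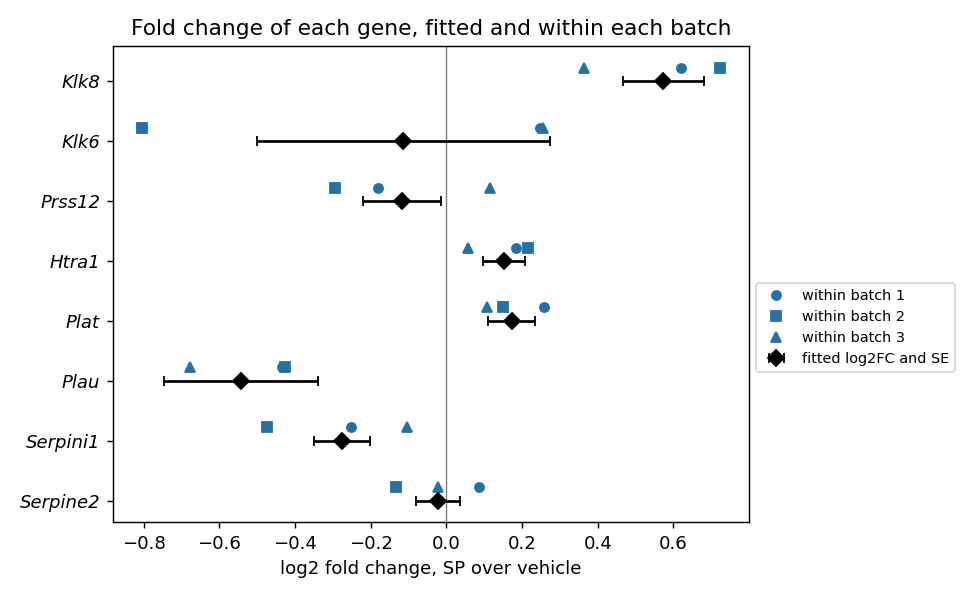
Log2 fold change of SP over vehicle for each gene, with the fitted value and its SE in black and the difference within each of the 3 batches in blue. *Klk8* has the highest fitted value at 0.57 and *Plau* the lowest at -0.54, and 5 genes have the same sign in all 3 batches.

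The 250 bases before the RefSeq start of *Klk8* (build GRCm38.p6) are shown because this gene had the smallest p of the 8, next to those of *Serpini1*, which had the smallest p among the genes lower in SP. A RefSeq promoter was given for 6 of the 8 genes. Matches to 5 short motifs were sought on both strands, and capitals mark them. The motifs were a TATA motif (TATAAA), present in 12.4% of 32851 promoters of this length, a GC box (GGGCGG), present in 32.7%, the core of a cyclic AMP response element (TGACG), present in 17.8%, an E-box (CACGTG), present in 6.02%, and an AP-1 motif (TGANTCA), present in 6.75%. No searched motif overlapped another in these 2 windows. The *Klk8* window is chr7:43797327-43797576 and that of *Serpini1* is chr3:75557243-75557492, both on the plus strand.
Klk8: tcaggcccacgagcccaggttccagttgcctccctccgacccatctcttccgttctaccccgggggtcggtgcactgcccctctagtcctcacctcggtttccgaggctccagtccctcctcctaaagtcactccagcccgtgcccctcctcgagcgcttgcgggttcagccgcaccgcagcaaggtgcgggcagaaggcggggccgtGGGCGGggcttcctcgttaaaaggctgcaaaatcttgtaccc
Serpini1: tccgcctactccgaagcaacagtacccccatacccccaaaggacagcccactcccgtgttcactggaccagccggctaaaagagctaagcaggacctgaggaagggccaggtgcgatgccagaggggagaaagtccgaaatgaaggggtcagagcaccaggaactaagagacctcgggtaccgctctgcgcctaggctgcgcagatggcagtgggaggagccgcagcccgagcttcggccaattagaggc
The window of *Klk8* held 1 GC box, 42 bases before the start, and none of the other motifs. The window of *Serpini1* held none of the 5. The GC content was 65.2% for *Klk8* and 61.2% for *Serpini1*, where the median of all promoters was 52.4%. A match is a description of letters, and binding was not measured.

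*Klk6* encodes neurosin, a kallikrein made mainly by oligodendrocytes. It lies 20672 bases downstream of *Klk8* at chr7:43824499-43832030, on the same strand (ENSMUSG00000050063). The libraries held 13, 18 and 12 counts of it in vehicle and 16, 9 and 12 in SP. The groups overlapped, and the highest count (vehicle library 2) and the lowest (SP library 2) were in the same batch. The log2FC was -0.11 (SE 0.387, FDR = 0.945), and the differences within batches were 0.25, -0.81 and 0.25. With counts this low a difference of the size seen for *Klk8* was within 2 SE of 0 and was not detectable, and the sign of the fitted value turned when both mice of batch 2, or either of them with no block, were left out. The counts of *Klk8* over those of *Klk6* were 14.1, 10.1 and 19.8 in vehicle and 17.8, 32.7 and 20.7 in SP. These ratios overlapped, with a log2 difference of 0.70 (two-sided exact permutation p = 0.2, adjusted p = 0.267 over 4 ratios, where 0.1 is the smallest p that 3 mice against 3 can give). The difference was 0.20 without batch 2 and 1.02 without batch 3.

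*Klk8* and *Klk6* belong to a cluster of 26 protein-coding Klk genes on chromosome 7. Of 12 other kallikreins, including plasma kallikrein (*Klkb1*), 8 had 3 counts or fewer in every library (*Klk1*, *Klk4*, *Klk5*, *Klk11*, *Klk12*, *Klk13*, *Klk14* and *Klk15*), which at 3 counts is 0.109 to 0.135 CPM. This limit covers counting error only. The filter on low counts was passed by 2 of the 12, and neither had an unadjusted p under 0.05. *Klk10* was the most abundant, at 0.474 ± 0.131 CPM in vehicle and 0.744 ± 0.139 CPM in SP (SD, n = 3), and its log2FC was 0.65 (SE 0.314, FDR = 0.538). The libraries held 8, 6 and 9 counts of *Klkb1* in vehicle and 8, 13 and 16 in SP. For *Klkb1* the log2FC was 0.79 (SE 0.416, FDR = 0.567). This gene passed the filter on low counts through SP libraries 2 and 3 alone. Entry by that route selects for a positive value, so no direction is drawn from the log2FC of *Klkb1*. A noncoding gene on the opposite strand, *2310002F09Rik*, overlaps *Klk8*, with starts 381 bases apart, and its log2FC was 0.28 (SE 0.142, FDR = 0.552). The library kit keeps strand, but the sources used here do not say whether the counting used it, so reads of this overlap may be assigned to either gene.

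*Prss12* encodes neurotrypsin, a presynaptic protease that cuts agrin. It lies at chr3:123446913-123506597 on the plus strand (ENSMUSG00000027978). Its expression was 14.7, 13.7 and 14.0 CPM in vehicle and 13.0, 11.1 and 15.2 CPM in SP. The SP libraries held both the highest value (library 3) and the lowest (library 2), and the groups overlapped. The log2FC was -0.12 (SE 0.103, FDR = 0.743), with differences of -0.18, -0.29 and 0.12 within batches. With no block, the log2FC was -0.006 without SP library 2 and -0.235 without SP library 3 (unadjusted p = 0.0411 and FDR = 0.305 from edgeR). *Agrn*, its substrate, was at 244 ± 3.39 CPM in vehicle and 257 ± 11.2 CPM in SP (SD, n = 3), with a log2FC of 0.07 (SE 0.0494, FDR = 0.671).

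*Htra1* encodes a secreted serine protease of the matrix, expressed in astrocytes and known for cutting fibronectin and acting on TGF-β signalling. It lies at chr7:130936111-130985660 on the plus strand (ENSMUSG00000006205). Its expression was 98.0, 97.8 and 102 CPM in vehicle and 111, 114 and 106 CPM in SP. The SP values were all above the vehicle values, and the gap was narrowest in batch 3. The log2FC was 0.15 (SE 0.0553, unadjusted p = 0.0273 and FDR = 0.437 from edgeR), with 0.18, 0.21 and 0.06 within batches. DESeq2 with the block gave an unadjusted p = 0.0795. By edgeR with the block, the unadjusted p was 0.165 without batch 1 and 0.0666 without batch 2. *Fgfr2*, on the opposite strand, overlaps *Htra1* in the annotation, and its log2FC was 0.12 (SE 0.0746, FDR = 0.636). Of the 3 other HtrA proteases, all tested, none had an unadjusted p under 0.05 by edgeR. *Htra2*, a mitochondrial protease and the most abundant of them, was at 23.8 ± 1.53 CPM in vehicle and 23.9 ± 1.78 CPM in SP (SD, n = 3). The log2FC of greatest size among the 3 was that of *Htra4*, -0.21 (SE 0.221, FDR = 0.789).

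*Plat* encodes tissue plasminogen activator, which neurons release on activity. It lies at chr8:22757727-22782844 on the plus strand (ENSMUSG00000031538). Its expression was 39.8, 38.7 and 38.6 CPM in vehicle and 47.7, 43.0 and 41.6 CPM in SP. All SP libraries were above all vehicle libraries, which lay close together, and SP library 1 was the highest. The log2FC was 0.17 (SE 0.0621, unadjusted p = 0.0258 and FDR = 0.436 from edgeR), with 0.26, 0.15 and 0.11 within batches. DESeq2 with the block gave an unadjusted p = 0.129. Without SP library 1, and with no block, the log2FC was 0.12 (unadjusted p = 0.0782 from edgeR). Also with no block, the p from edgeR was 0.0553 without vehicle library 2 and 0.0573 without vehicle library 3. With the block, it was 0.19 without batch 1.

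*Plau* encodes urokinase, the other plasminogen activator. It lies at chr14:20836660-20843385 on the plus strand (ENSMUSG00000021822). The libraries held 37, 63 and 65 counts of it in vehicle and 27, 45 and 32 in SP, or 1.59, 2.55 and 2.36 CPM against 1.15, 1.87 and 1.44 CPM. The lowest vehicle value (library 1) was below the highest SP value (library 2), so that the groups overlapped, while in each batch the SP value was the lower one. The log2FC was -0.54 (SE 0.203, unadjusted p = 0.0306 and FDR = 0.449 from edgeR), with -0.43, -0.43 and -0.68 within batches. With no block the unadjusted p from edgeR was 0.0629, and DESeq2 gave 0.234 with the block and 0.107 without it. With the block, the p was also above 0.05 without any 1 of the 3 batches. With no block, it was above 0.05 too without vehicle library 2 (0.192), vehicle library 3 (0.156), SP library 1 (0.178) or SP library 3 (0.110).

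*Serpini1* encodes neuroserpin, the neuronal inhibitor of tissue plasminogen activator. It lies at chr3:75557547-75643495 on the plus strand (ENSMUSG00000027834), and its window before the start is printed with that of *Klk8*. Its expression was 213, 196 and 199 CPM in vehicle and 179, 141 and 185 CPM in SP. All SP libraries were below all vehicle libraries, and SP library 2 was far below the other 2. The means were 203 ± 9.18 CPM in vehicle and 168 ± 24.0 CPM in SP (SD, n = 3). The log2FC was -0.28 (SE 0.0737, unadjusted p = 0.00658 and FDR = 0.359 from edgeR), with -0.25, -0.47 and -0.10 within batches. Of all tested genes, 313 had a p at least as small. Without SP library 2, and with no block, the log2FC was -0.15, and without both mice of batch 2 it was -0.18. With no filter on low counts the FDR was 0.0384, but the log2FC of -0.28 did not reach the minimum size for a DEG. Its FDR over all alternatives ranged from 0.0384 to 0.818. *Pdcd10*, which starts 691 bases away on the opposite strand, had a log2FC of -0.02 (FDR = 0.972).

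*Serpine2* encodes protease nexin-1, a glial inhibitor of thrombin and of both plasminogen activators. It lies at chr1:79794197-79861180 on the minus strand (ENSMUSG00000026249). Its expression was 131, 139 and 140 CPM in vehicle and 139, 127 and 138 CPM in SP. The groups overlapped, and both held a library near 130 CPM and a pair near 139 CPM. The log2FC was -0.02 (SE 0.0581, FDR = 0.924), with 0.09, -0.13 and -0.02 within batches.

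A ratio of 2 genes in 1 library does not depend on how that library was scaled. The counts of *Plat* over those of *Serpini1* were 0.187, 0.198 and 0.194 in vehicle and 0.267, 0.305 and 0.225 in SP. Every SP ratio was above every vehicle ratio, with the highest in SP library 2, where *Serpini1* was lowest. The log2 difference of the means was 0.45, a 1.37-fold higher ratio (two-sided exact permutation p = 0.1, the smallest possible, and adjusted p = 0.267 over 4 ratios). Over *Serpine2*, the *Plat* ratio was 0.304, 0.279 and 0.275 in vehicle and 0.343, 0.339 and 0.301 in SP. Here the groups overlapped at SP library 3 and vehicle library 1, with a log2 difference of 0.20 (exact permutation p = 0.2, adjusted p = 0.267). These ratio tests did not use the batch number. With it as a block, the exact permutation p was 0.25 for each *Plat* ratio and for *Klk8* over *Klk6*. This is the smallest p that the blocked test can give with 3 batches.

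Levels were compared between genes as CPM per kb of the longest transcript. In vehicle the order was *Serpini1* at 49.5 ± 2.24, *Htra1* at 48.6 ± 1.15 and *Serpine2* at 40.3 ± 1.49 CPM per kb (SD, n = 3). *Serpini1* and *Htra1* did not differ beyond their spread. *Plat* followed at 9.66 ± 0.169, then *Klk8* at 6.01 ± 0.488 and *Prss12* at 5.43 ± 0.203 CPM per kb. The last pair differed by more than either SD. *Plau* at 0.924 ± 0.216 and *Klk6* at 0.412 ± 0.105 CPM per kb were lowest. In SP, *Htra1* (54.0 ± 1.91) was above *Serpini1* (41.2 ± 5.86) and *Serpine2* (39.7 ± 2.01), and the last 2 did not differ beyond their spread. *Klk8* stood at 8.95 ± 0.454 in SP, below *Plat* at 10.9 ± 0.788 and above *Prss12* at 5.03 ± 0.780 CPM per kb. With the union of exons as the length, 4 of the 8 genes kept their rank in vehicle, *Htra1* (34.5) came before *Serpini1* (27.8) and, further below, *Serpine2* (16.5), and *Prss12* (5.43) before *Klk8* (5.16 CPM per kb).

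**Figure D3:**
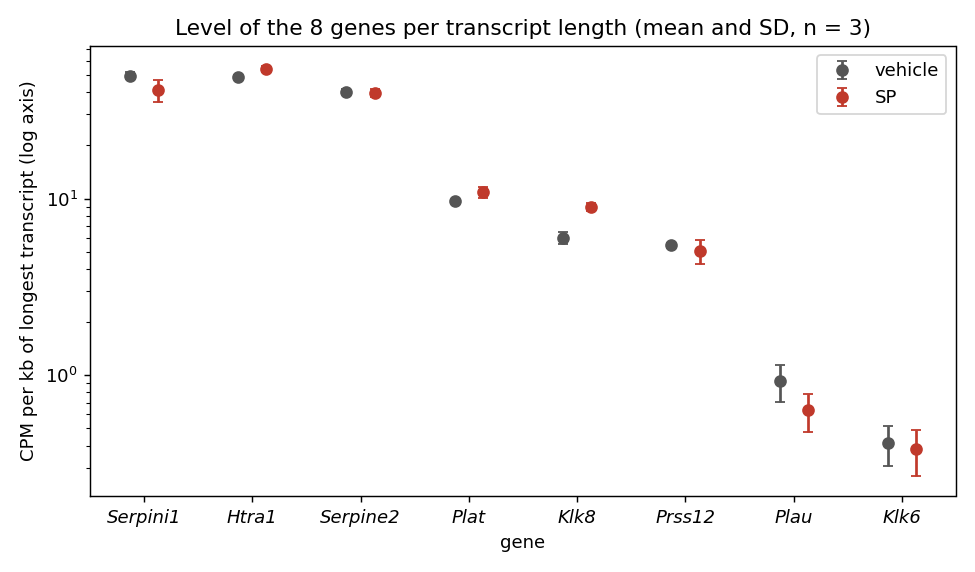
Level of each gene as CPM per kb of its longest transcript (log axis) in vehicle (grey) and SP (red), as mean and SD of 3 mice, ordered by the vehicle level. *Serpini1*, *Htra1* and *Serpine2* lie between 39.7 and 54.0 CPM per kb on this length, though not with the union of exons, while *Plau* and *Klk6* lie under 1.

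Many other genes of the plasminogen and thrombin system were low. Of 14, 8 were tested and none had an unadjusted p under 0.05 by edgeR, with a median log2FC of -0.05, and the groups did not overlap for 4 of the 8, beside 18.2% of all tested genes. *Plg*, which encodes plasminogen itself, had 3 counts or fewer in every library, as had the thrombin gene *F2* and *Serpinb2*. The receptor *Lrp1*, which clears protease and serpin complexes, was the most abundant at 494 ± 10.9 CPM in vehicle and 509 ± 45.0 CPM in SP (SD, n = 3). The protease-activated receptor gene *F2rl1*, chosen after its values were seen, had 127 counts in SP library 2 and at most 4 in any other library. It did not pass the filter on low counts, which needs 2 libraries, and so had no test.

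Of 12 other serpins and Kunitz inhibitors, 11 were tested and 2 had an unadjusted p under 0.05 by edgeR, beside 10.1% of all tested genes. *Serpina3n*, a serpin induced in reactive astrocytes and the most abundant of the list, was at 40.4, 38.3 and 38.2 CPM in vehicle and 43.7, 51.8 and 40.8 CPM in SP. Its groups did not overlap, and its log2FC was 0.22 (SE 0.0814, FDR = 0.451). *Spint2*, a Kunitz inhibitor of serine proteases, was at 21.9, 24.0 and 26.4 CPM in vehicle and 10.4, 16.7 and 24.8 CPM in SP. The SP libraries spread widely, with library 1 lowest as for the choroid plexus markers, and the log2FC was -0.54 (SE 0.165, FDR = 0.404). Whether choroid plexus tissue had a part in the values of *Spint2* was not tested.

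Of 12 substrates and their receptors, all were tested, 3 had an unadjusted p under 0.05 by edgeR, beside 10.1% of all tested genes, and none was a DEG. *Erbb4*, the receptor of neuregulins on interneurons, was at 68.4, 69.3 and 77.7 CPM in vehicle and 62.0, 48.7 and 58.4 CPM in SP. All SP values were lower than all vehicle values (log2FC -0.35, SE 0.0783, FDR = 0.315). *Nrg1*, the ligand of ErbB4 and a substrate of neuropsin, was at 6.96, 4.32 and 6.02 CPM in vehicle and 4.09, 3.82 and 4.45 CPM in SP. Vehicle library 2 lay among the SP values (log2FC -0.47, SE 0.154, FDR = 0.417). *Ephb2*, another neuropsin substrate, was at 27.8, 29.1 and 28.0 CPM in vehicle and 34.5, 35.4 and 30.0 CPM in SP. Its SP values were all higher (log2FC 0.23, SE 0.0705, FDR = 0.404). *Grin2b*, an NMDA receptor subunit, was the most abundant of the list, with 608 ± 33.8 CPM in vehicle and 601 ± 59.8 CPM in SP (SD, n = 3) and a log2FC of -0.02 (SE 0.0850, FDR = 0.955).

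Markers of other cells and regions moved along with some of these genes. The 10 oligodendrocyte and myelin markers summed to 4221, 4226 and 4728 CPM in vehicle and to 5379, 6924 and 4842 CPM in SP, with no overlap. All 10 had a positive log2FC, and no marker of the list was at 0. An unadjusted p under 0.05 by edgeR was found for 8, beside 10.1% of all tested genes. Among these were *Mbp*, the most abundant (log2FC 0.38), *Mag* (0.37), *Mobp* (0.35), *Cldn11* (0.39), *Cnp* (0.30), *Opalin* (0.32) and *Ugt8a* (0.32). *Mbp* and *Mag* are among the genes on whose sign the sources differ, and the signs given follow the deposited labels. *Klk6*, made by the same cells, had overlapping groups. Its counts over the summed counts of the list had a log2 difference of -0.49, with overlap between the groups. The exact permutation p was 0.4 (adjusted p = 0.4), and 0.75 with the batch number as a block. The difference turned to 0.105 without batch 2 and was -0.868 without batch 3. Of the 8 markers of neocortex, layer 6b and subiculum, all had a negative log2FC, and none was at 0. An unadjusted p under 0.05 by edgeR was found for 4, beside the same 10.1% of all tested genes. They were *Tshz2*, the most abundant (-0.87), *Nxph4* (-0.83), *Cux2* (-0.64) and *Rorb* (-0.24). SP library 2 had the most myelin and the least of these cortical markers. It also had the lowest *Serpini1*, *Prss12*, *Klk6* and *Serpine2* and the highest *Htra1* and *Klk8*. For *Klk8* it was close to SP library 1 (12.2 and 12.1 CPM). The part of either list in the values of *Serpini1*, *Klk8*, *Plat* or *Htra1* was not tested.

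**Figure D4:**
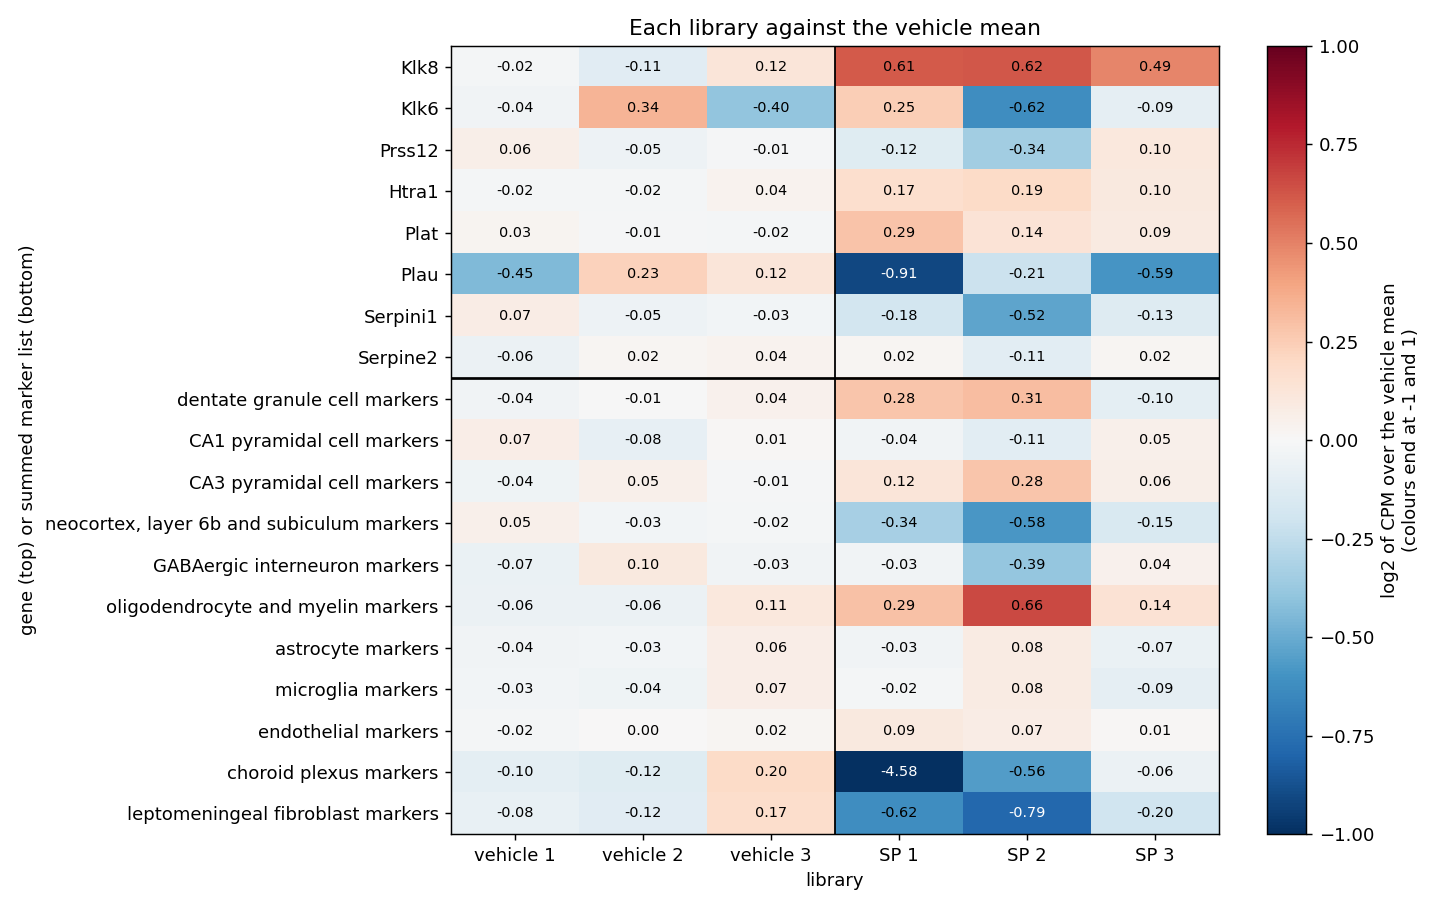
Log2 of each library's CPM over the vehicle mean for the 8 genes (above the line) and for the summed markers of 11 cell types or regions (below it), with colours that end at -1 and 1 and the value in each cell. SP library 2 is highest for myelin (0.66) and lowest for *Serpini1* (-0.52), and SP library 1 is lowest for choroid plexus (-4.58).

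Markers of hippocampal principal cells were mixed. Counts of markers with an unadjusted p under 0.05 stand beside 10.1% of all tested genes by edgeR. In dentate granule cells, where the summed markers were 387, 396 and 410 CPM in vehicle and 483, 493 and 371 CPM in SP, 1 of 5 had an unadjusted p under 0.05 by edgeR, *C1ql2* (log2FC 0.26), and the most abundant was *Calb1* (0.06). The CA1 sums were 650, 587 and 626 CPM in vehicle and 605, 576 and 644 CPM in SP, and *Fibcd1* was higher (0.26) and *Mpped1*, the most abundant, lower (-0.18), both with an unadjusted p under 0.05. The CA3 sums were 340, 364 and 347 CPM in vehicle and 382, 426 and 365 CPM in SP. *Grik4* (0.22), *Nectin3* (0.24) and *Cpne4* (0.20), the most abundant, had an unadjusted p under 0.05 in that list, and all 3 SP sums were above all vehicle sums. The interneuron sums were 638, 715 and 654 CPM in vehicle and 654, 511 and 688 CPM in SP, with *Vip* at -0.34 and the most abundant, *Gad1*, at -0.08. Whether the makeup of the neurons sampled had a part in the values of the 8 genes was not tested.

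Astrocyte, microglia and endothelial sums overlapped between the groups. Of 6 astrocyte, 5 microglia and 5 endothelial markers, all tested, none had an unadjusted p under 0.05 by edgeR, beside 10.1% of all tested genes. The astrocyte sums were 3715, 3733 and 3981 CPM in vehicle and 3726, 4029 and 3637 CPM in SP. Their most abundant marker was *Slc1a2* (log2FC -0.01) and the one with the largest value *Gfap* (0.10). Microglia markers summed to 168, 166 and 179 CPM in vehicle and 168, 180 and 160 CPM in SP, with *Csf1r* (0.02) most abundant and *Aif1* (0.08) largest in size. Endothelial markers, of cells that also make tissue plasminogen activator, summed to 136, 137 and 139 CPM in vehicle and 147, 145 and 139 CPM in SP, with *Flt1* (0.04) most abundant and *Cldn5* (0.18) largest. Choroid plexus markers had a negative log2FC for 5 of 5, but the groups overlapped for each, and SP library 1 was far below all other libraries. An unadjusted p under 0.05 by edgeR was found for *Kl* (-0.99) and *Clic6* (-1.06). *Ttr*, the most abundant, was at -1.58 (SE 0.863), with 125, 2542 and 3614 CPM in SP libraries 1 to 3. Leptomeningeal fibroblast markers summed to 332, 323 and 395 CPM in vehicle and 227, 203 and 305 CPM in SP, with *Igf2*, the most abundant, at -0.70 (SE 0.0985, FDR = 0.231). No marker of these lists was at 0, and the part of these cells and tissues in the values of *Plau*, *Plat*, *Htra1*, *Klk8* or *Serpini1* was not tested.

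For each of the 8 genes, the 3 most like genes were sought by Pearson's r of log2 CPM over the 6 libraries among 10344 genes with a mean of at least 10 CPM. The values are high because the best 3 were picked, and no test was made. *Klk8* was most like *Lmo1* (r = 0.997), *Stum* (0.992) and *Lancl1* (0.991). *Lmo1* was at 19.3, 19.2 and 20.4 CPM in vehicle and 24.3, 24.4 and 23.3 CPM in SP, so that it was higher in all SP libraries as *Klk8* was. *Htra1* was most like *Neurod6* (0.997), *Ndrg1* (0.994) and *Ajm1* (0.988), and *Plat* most like *Pmm1* (0.991), *Commd8* (0.990) and *Calm3* (0.989). These patterns are all higher in SP. *Serpini1* was most like *Npas2* (0.997), *Elavl4* (0.997) and *Gnl3l* (0.996). *Npas2* was at 30.2, 27.4 and 27.9 CPM in vehicle and 23.3, 15.3 and 25.0 CPM in SP, with the low value of SP library 2 that *Serpini1* has. Among the genes most like *Plau* were *Dync2h1* (0.984) and *Cirbp* (0.981), and *Prss12* most like *Scfd1* (0.998), *Nucb2* (0.988) and *Chd5* (0.986). *Klk6* was most like *Ccdc136* (0.996), *Grip2* (0.992) and *Smc2* (0.987), and *Serpine2* most like *H1f0* (0.985), *Glrx3* (0.983) and *Klhl7* (0.981). The pattern of *Klk6* rests on 9 to 18 counts per library, which limits what its likeness can show.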

How the data were processed

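The authors trimmed reads with Trim Galore, aligned them to GRCm38 with STAR and quantified them with Salmon, and they deposited estimated counts per gene, not scaled for depth or length. Versions are not given in the sources used here. Counts were rounded (9.77% differed from their rounded value, with no tolerance). In R 4.3.3, edgeR 4.0.16 kept genes by filterByExpr on the block design (minimum count 10, minimum total 15), normalized by TMM and ran the quasi-likelihood test with the batch number as a block, with Benjamini-Hochberg adjustment over 17069 genes. The labels call the number a batch, and the study's methods adjust for replicates. The deviations of same-numbered mice had r = 0.0141, -0.0956 and 0.0232 for numbers 1 to 3, so these mice did not deviate together. Within-batch differences are of log2(CPM + 0.1). Alternatives used limma 3.58.1, DESeq2 1.42.0, other normalizations, filters and thresholds, and left out libraries (single ones with no block). Lengths and positions came from GENCODE M21, which holds 55154 of the 55421 genes. The gene lists, like the members, were chosen with earlier results of these data known. Genes named are the 8 members, in each list those with an unadjusted p under 0.05, the one with the largest log2FC and the most abundant, and the 3 most like each member, except that some are not reported here. *Agrn*, *F2rl1* and overlapping genes were named beside them. Each library is 1 mouse.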

Additional observations from a re-analysis of the deposited data

How the results depend on the processing

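Single libraries were left out with no block, and replicate numbers with it. Of 143 fold changes of the 8 genes under the alternatives, 138 kept their direction. Those that turned were *Klk6* without replicate 2 (0.294), without vehicle library 2 (0.102) and without SP library 2 (0.099), with a range of -0.334 to 0.294 over all left-out libraries, and *Serpine2* without replicate 2 (0.032) and without SP library 2 (0.019), with a range of -0.077 to 0.032. The log2 ratio of *Klk6* to myelin markers turned to 0.105 without replicate 2 and was -0.868 without replicate 3. These values rest on low counts or lie near 0, and the cause was not tested.

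The number of DEGs, 5 with the block on the replicate number, was 2 with no replicate block, 384 with no filter, 0 with at least 10 counts in every library, 2 by limma-voom, 36 by DESeq2 with the block, 133 by DESeq2 without it, 0 at FDR < 0.05, and 9, 13 and 36 without replicates 1, 2 and 3. Against the 2 with no block, it was from 1 (without vehicle library 1) to 357 (without SP library 3), with 4 without vehicle library 3 or SP library 2 and 7 without SP library 1. With the low count filter on the 2 groups, chosen after seeing the data, it was 0. DEGs among the 8 genes were 1 (*Klk8*) with no filter, by DESeq2 without the block, and without SP library 3, and 0 to 1 with libraries left out. Genes of the 8 with an unadjusted p under 0.05, 5 with the block, were 4 without it, 2 by DESeq2 with the block, 2 and 3 without replicates 1 and 2, and, with no block, 3 without vehicle library 2 or 3 or SP library 1 and 5 without SP library 2 or 3. Groups did not overlap in 2 of the 8 on counts not scaled, and 4 of the 8 ranks held with the union of exons as the length. The median log2FC of the 8 lay between -0.13 (without replicate 3) and 0.08 (without replicate 2). Without the block edgeR lost *Plau*, and DESeq2 gained *Plat* and *Htra1*, to 4 in all. *Klk6* was not tested with at least 10 counts in every library, and DESeq2 gave no FDR for it or for *Plau*. Depth limits what can be said of *Klk6*, with 9 to 18 counts per library.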
